A study of Mus musculus with 144 samples.

Results

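Neat1, Malat1, Mlxipl, Gcgr, Nlrp6 and Meg3 are genes whose transcripts are known or proposed to be held in the nucleus of liver cells, and they were chosen by name. They are 6 of the 51912 genes of the deposited count table, and 28 of the 29199 sites in the authors' filtered list of polyadenylation sites lie in 5 of them. Neat1, Malat1 and Meg3 are annotated as long noncoding RNAs, and Mlxipl, Gcgr and Nlrp6 as protein-coding. RNA of mouse liver was measured by 3′ mRNA sequencing, which reads the end of a transcript next to its poly(A) tail. The labels describe all animals as male C57BL/6J mice, housed under 12 h light and 12 h dark cycles and fed ad libitum. Livers were taken at zeitgeber times (ZT, hours after lights on) ZT2, 6, 10, 14, 18 and 22. There are 4 series of 36 libraries, with 6 libraries at each time. For wild-type livers, 3 series hold total, nuclear and polysomal RNA, and the fourth holds total RNA from Bmal1-/- livers, in which the clock gene Bmal1 (Arntl) is disrupted. Per the labels' protocols, nuclei came from hypotonic washes and a sucrose cushion, and polysomes from a cycloheximide buffer and a sucrose gradient. The labels do not say which part of Bmal1 was altered, nor whether total, nuclear and polysomal RNA came from the same animals. They also do not say that libraries with different numbers came from separate animals, so the p-values below measure the spread between these libraries.

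Neat1 is the scaffold RNA of paraspeckles, nuclear bodies that hold RNA-binding proteins and some edited or unspliced mRNAs. It is made in a short polyadenylated form and in a long form, and only the long form builds the body. Malat1 is an abundant RNA of nuclear speckles, which store splicing factors. The ends of Malat1 and of long Neat1 are made by RNase P and protected by a triple helix instead of a poly(A) tail. Mlxipl encodes ChREBP, the transcription factor that turns on glycolytic and lipogenic genes when glucose is high. Gcgr encodes the glucagon receptor, through which glucagon raises glucose output of hepatocytes, and Nlrp6 encodes a sensor that can assemble an inflammasome. Meg3 is a maternally expressed RNA of an imprinted cluster. For protein-coding genes, holding a finished mRNA in the nucleus is a known way to separate transcription from the supply of mRNA to ribosomes.

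In RefSeq annotation (GRCm38.p6), Neat1 lies on chromosome 19 at 5824708 to 5845480 and Malat1 at 5795690 to 5802672 on the same chromosome, both on the minus strand. The strand of Neat1 was taken from that of its sites. Mlxipl lies on chromosome 5 at 135089890 to 135139768, Gcgr on chromosome 11 at 120529185 to 120538989, Nlrp6 on chromosome 7 at 140920902 to 140929192 and Meg3 on chromosome 12 at 109540996 to 109571729, all on the plus strand. The tables used give the limits of genes and not their exons, so whether a site is exonic or intronic was not read. RefSeq start windows of 300 bases (250 before the start and 50 after it) were matched for 5 of the 6 genes, all but Neat1. They were searched on both strands for CACGTG, the E-box that BMAL1 binds with CLOCK, a motif that reads the same on both strands. The motif was in 1 of the 2 Mlxipl windows and in 0 of those of Malat1, Gcgr, Nlrp6 and Meg3. It was in 7.15% of all 32851 windows. The first sequence below is the 250 bases before the annotated Mlxipl start, shown because the level of Mlxipl differed in Bmal1-/- mice, with the motif in capitals (135089792 to 135089797, 98 bases before the start). The other runs from a site that lies just before the annotated Nlrp6 start, outside the authors' filtered list but among the strongest of the Nlrp6 sites in nuclear RNA, to that start. Its capitals are the 20 bases after the end of the site.
Mlxipl, chr5:135089640-135089889, plus strand: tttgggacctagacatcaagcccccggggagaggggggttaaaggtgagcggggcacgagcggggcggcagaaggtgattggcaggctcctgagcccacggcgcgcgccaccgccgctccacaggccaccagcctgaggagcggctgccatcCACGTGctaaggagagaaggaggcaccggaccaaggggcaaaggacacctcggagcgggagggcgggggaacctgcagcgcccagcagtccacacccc
Nlrp6, chr7:140920727-140920901, plus strand: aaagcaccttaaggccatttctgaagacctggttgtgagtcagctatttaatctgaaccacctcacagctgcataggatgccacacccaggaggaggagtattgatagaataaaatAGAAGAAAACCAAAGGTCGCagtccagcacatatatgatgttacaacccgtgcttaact
Of the 20 bases after the Nlrp6 site, 10 are A. Among 133 sites with 20 bases after them in such windows the median was 5 A, with as many as 10 in 9.52% of the 42 in the filtered list and 17.6% of the 91 others. A match or a run of A is a description of the letters and not evidence that a factor bound there or that a transcript ended there.

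Levels are given as CPM, a gene's counts scaled to a common library total, so they are shares of each library and give no amount per cell, and fewer cells of a type cannot be told apart from less RNA per cell. Library totals ran from 1662449 to 14281894 counts, with the nuclear libraries lowest (up to 6620128). The summed level of 10 hepatocyte marker genes had a median of 82527 CPM in wild-type total RNA, 53293 in nuclear, 41863 in polysomal and 65619 in Bmal1-/- RNA. That of 6 erythroid genes had a median of 2586 CPM in total and 8853 CPM in polysomal RNA, with ranges of 546 to 13134 and 2157 to 20823 CPM. The part of these shifts in the results below was not tested. The deposited counts include Arntl in the Bmal1-/- libraries (10.9 CPM at the median, 6.46 in wild-type total RNA), and 3′ counts do not check a change inside the gene. All libraries are labelled male, and 4 of them had over 100 CPM of Xist, the RNA of the inactive X chromosome, and the other 140 had at most 5.67 CPM. All 4 are at ZT22: wild-type total replicate 5, nuclear replicate 5, polysomal replicate 1 and Bmal1-/- replicate 6. In that order they had 0.380, 0, 0.352 and 92.9 CPM of Ddx3y, a gene of the Y chromosome. Whether the label of sex holds for these 4 libraries was not tested. Results were recomputed without them, a choice made after seeing the data, and the call on these genes that was lost (the rhythm of nuclear Neat1) is given with its value. Polysomal results were also recomputed without the 6 polysomal libraries numbered 1. No measure of how far these differ from the other polysomal libraries is given here.

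By mean CPM, Neat1 was 9.71 times higher in nuclear than in total RNA, and lower on polysomes than in total RNA. Its level had a median of 157 CPM in wild-type total RNA (83.9 to 304 over 36 libraries), 1411 CPM in nuclear RNA (282 to 5126) and 8.72 CPM in polysomal RNA (2.59 to 43.5). Of the 36 nuclear libraries, 35 lay above every total library, and all 36 polysomal libraries lay below every total library. The fitted log2 change of nuclear against total RNA was 3.06 (SE 0.14, adjusted p 2.67e-31 by edgeR's quasi-likelihood test with Benjamini-Hochberg adjustment), the 201st highest of 11864 genes. At each of the 6 times no nuclear library overlapped a total library, and the ratio of mean CPM ran from 5.38 at ZT10 to 13.1 at ZT18. Nlrp6 was also apart at 6 of 6 times, Mlxipl and Gcgr at 4 and Malat1 at 0. The share of all genes that were apart at each time was not counted, so this gap is a description. In polysomal against total RNA the log2 change of Neat1 was -4.27 (SE 0.15, adjusted p 4.35e-36 by edgeR).

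Malat1 behaved differently in the nuclear libraries. It had a median of 1750 CPM in total RNA (369 to 2845), 1482 CPM in nuclear RNA (407 to 2964) and 47.9 CPM in polysomal RNA (17.7 to 131). Nuclear and total libraries overlapped, while every polysomal library lay below every total and every nuclear library. Its log2 change in nuclear RNA was -0.32 (SE 0.12, adjusted p 0.0155 by edgeR), and the mean CPM was higher in nuclear RNA at 2 of 6 times. This small fall was not called with scaling by the library total alone (-0.24, adjusted p 0.0939), in a fit of all 4 series (-0.27, adjusted p 0.0575), within replicates 1 to 3 (-0.37, adjusted p 0.0604) or within replicates 4 to 6 (-0.16, adjusted p 0.322). On polysomes the log2 change of Malat1 was -5.15 (SE 0.16, adjusted p 1.59e-39 by edgeR), the 81st lowest of 11556 genes. Known as a transcript held in the nucleus, Malat1 was thus low on polysomes, but its counts were not enriched in nuclear libraries. In total RNA 92.8% of its site counts came from 3 sites within 1000 bp of its annotated start, and 62.3% in nuclear RNA. Whether these sites are ends of Malat1 or priming within it was not tested, so the level of whole Malat1 was not read. Meg3 was too sparse to test: it had 16 counts in all 36 total libraries together, 49 in nuclear, 20 in polysomal and 25 in Bmal1-/- libraries. It reached at most 1.99 CPM in a library, had no site in the filtered list and is given no fold change.

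**Figure D1:**
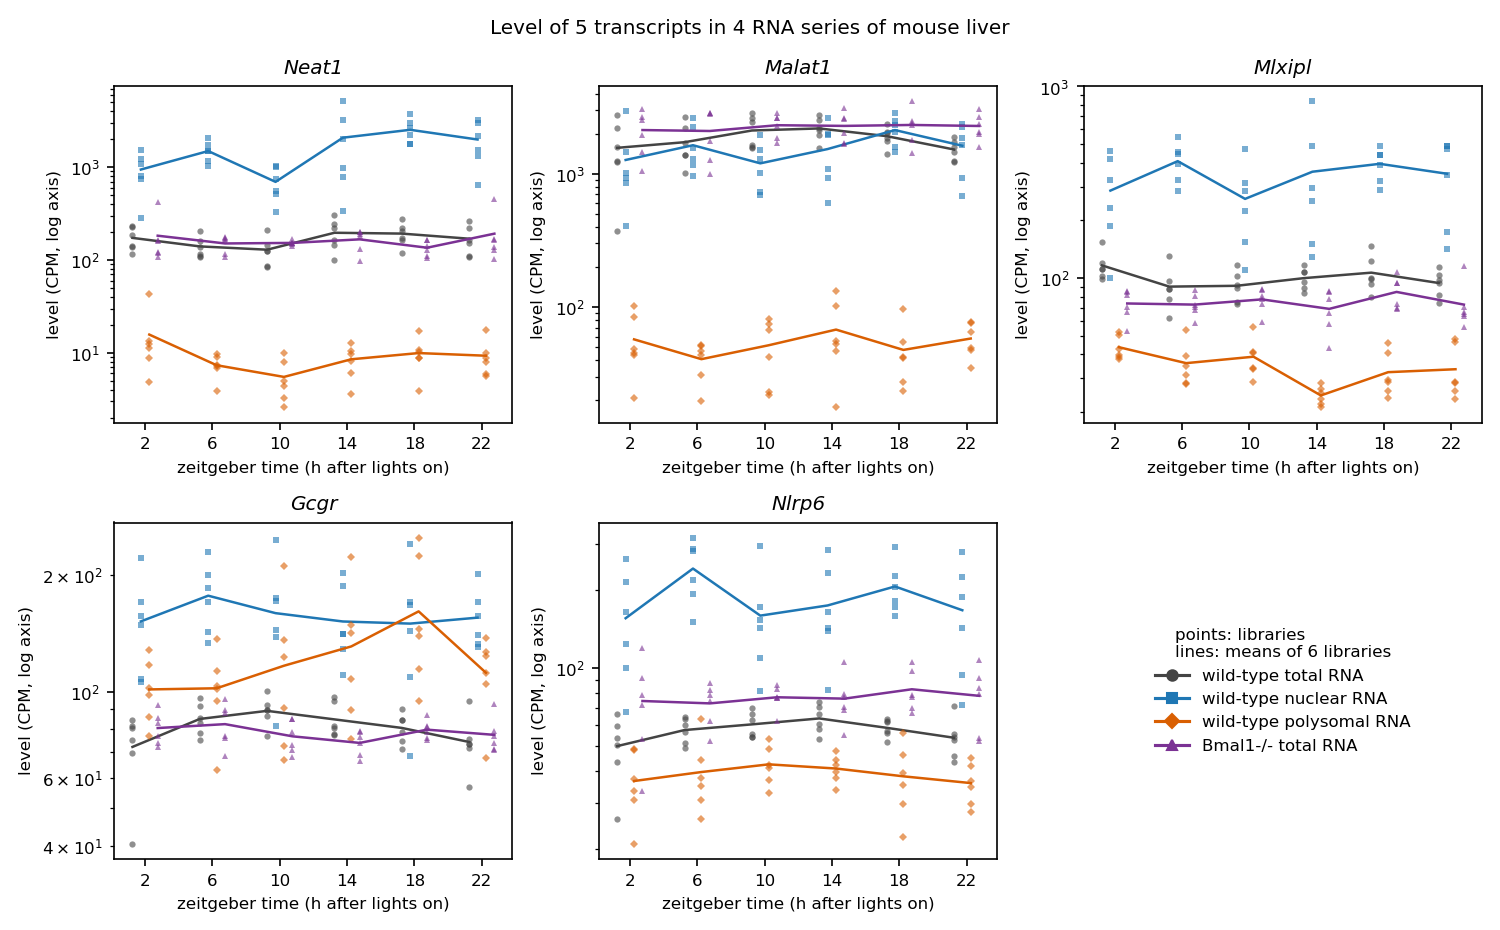
Level of 5 transcripts at each zeitgeber time (x axis, hours after lights on) in CPM on a log axis, with a point for each library and a line through the mean of 6 libraries for each of the 4 series. Neat1 nuclear points lie far above the total points (medians 1411 and 157 CPM), while the nuclear and total points of Malat1 overlap and its polysomal points lie far below (median 47.9 CPM).

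Among the protein-coding genes, Mlxipl was higher in nuclear RNA and lower on polysomes. It had a median of 98.0 CPM in total RNA (61.7 to 155), 324 CPM in nuclear RNA (100.2 to 837) and 32.6 CPM in polysomal RNA (21.2 to 55.5). All 36 polysomal libraries lay below all total libraries, and 30 of 36 nuclear libraries lay above all of them. The log2 changes were 1.67 in nuclear (SE 0.11, adjusted p 4.06e-24) and -1.60 in polysomal RNA (SE 0.07, adjusted p 1.27e-32, both by edgeR). The ratio of nuclear to total mean CPM ran from 2.46 at ZT2 to 4.51 at ZT6.

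Nlrp6 followed the same order, with a smaller fall on polysomes. It had a median of 56.8 CPM in total RNA (26.0 to 73.7), 172 CPM in nuclear RNA (67.4 to 318) and 37.7 CPM in polysomal RNA (20.9 to 63.6). Of the nuclear libraries 34 lay above all total libraries, but only 2 polysomal libraries lay below all total libraries, so the latter groups overlapped. The log2 changes were 1.59 in nuclear (SE 0.09, adjusted p 6.24e-26) and -0.62 in polysomal RNA (SE 0.08, adjusted p 5.44e-11, both by edgeR). The mean was lower on polysomes at 6 of 6 times.

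Gcgr was higher in both fractions than in total RNA. It had a median of 81.1 CPM in total RNA (40.4 to 101), 153 CPM in nuclear RNA (68.3 to 246) and 112 CPM in polysomal RNA (62.7 to 250.1). Nuclear libraries lay above all total libraries in 34 cases and polysomal libraries in 24. The log2 changes were 0.91 in nuclear (SE 0.08, adjusted p 4.99e-17) and 0.50 in polysomal RNA (SE 0.09, adjusted p 3.67e-07, both by edgeR), each higher at 6 of 6 times. The polysomal level differed between library numbers, with a mean of 95.3 CPM ± 20.9 (SD, n = 18) in replicates 1 to 3 and 146 CPM ± 48.7 (SD, n = 18) in replicates 4 to 6. The log2 change was 0.22 (adjusted p 0.0400 by edgeR) and 0.67 (adjusted p 3.30e-06 by edgeR) in these 2 sets of libraries.

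Changes of this kind were common in these data. In nuclear against total RNA all 5 genes tested were called, 4 higher and 1 lower, where 83.8% of 11864 genes were called, 41.6% higher and 42.1% lower. At least 2-fold higher were Neat1, Mlxipl and Nlrp6, as were 18% of all genes. In polysomal against total RNA all 5 were called, 4 lower and 1 higher, where 76.0% of 11556 genes were called, 37.2% lower and 38.8% higher. Higher in nuclear and lower in polysomal than in total RNA were Neat1, Mlxipl and Nlrp6, as were 13.4% of the 11250 genes tested in both comparisons. Gcgr was higher in both, as were 16.7%, and Malat1 was lower in both, as were 19.2%. Both comparisons use the same total libraries. Of 10 mRNAs listed as cytosolic controls, 4 were higher, 4 lower and 2 not called in nuclear RNA by edgeR. On polysomes 3 of these 10 were higher, 5 lower and 2 not called. Among them Alb, the albumin mRNA, was lower in nuclear (-1.33, SE 0.11) and in polysomal RNA (-1.34, SE 0.09) than in total RNA. A fall on polysomes was thus not particular to the members. Every polysomal library lay below every total library for Neat1, Malat1 and Mlxipl, a pattern found in 2.18% of genes. Set directly against nuclear RNA, polysomal RNA was lower by -7.43 for Neat1 (SE 0.21), -4.94 for Malat1 (SE 0.18), -3.38 for Mlxipl (SE 0.12), -2.31 for Nlrp6 (SE 0.11) and -0.52 for Gcgr (SE 0.10) on the log2 scale. All 5 were called lower by edgeR, where 82.1% of 11244 genes were called, and 42.2% called lower. The Gcgr difference was not called within replicates 4 to 6 (-0.13, adjusted p 0.348).

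**Figure D2:**
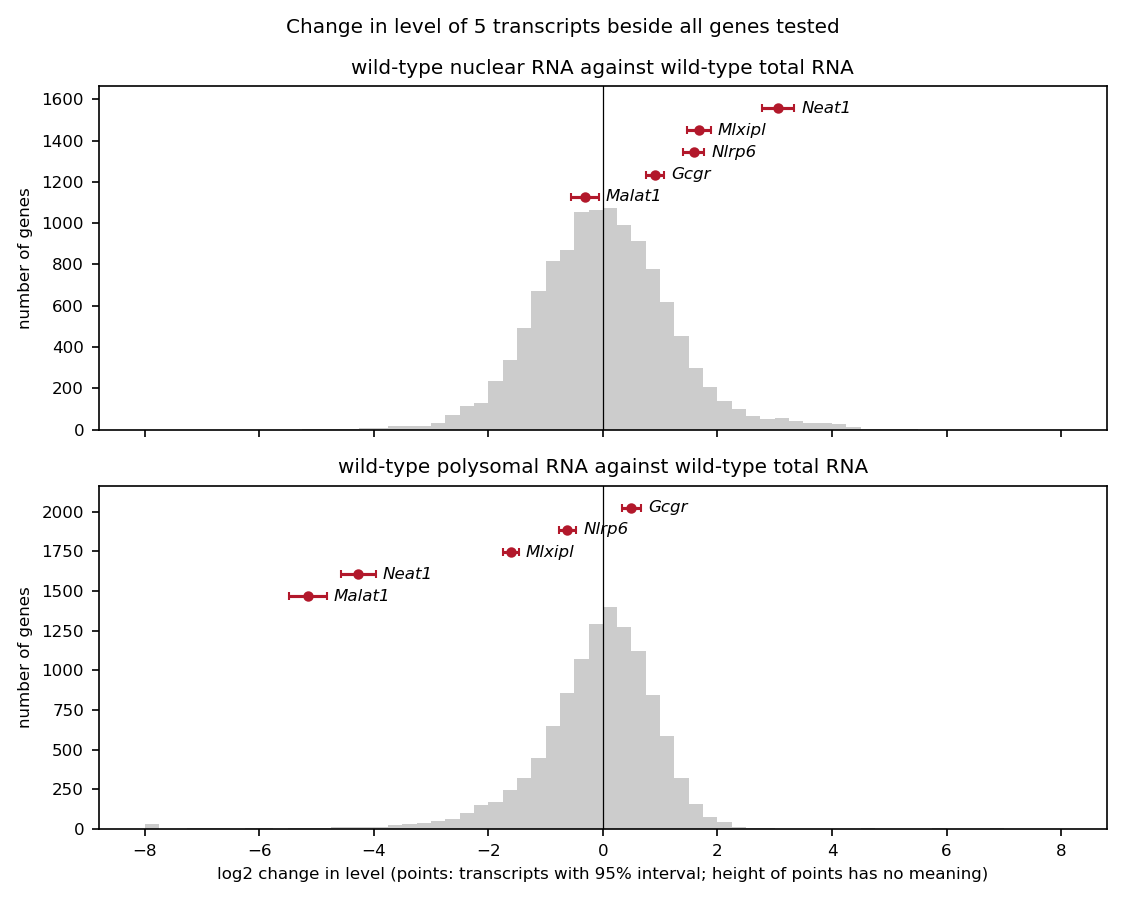
Log2 change in level of nuclear (top) and polysomal (bottom) against total RNA of wild-type liver on the x axis, with the number of genes on the y axis. Grey bars are all genes tested (values beyond ±8 are counted in the outermost bars) and red points are the 5 transcripts with their 95% interval, at heights without meaning. Neat1 lies in the upper tail of the top panel (3.06) and, with Malat1 (-5.15), in the lower tail of the bottom panel (-4.27).

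Neat1 counts came from sites at and beyond the known end of its short form. The filtered list holds 8 Neat1 sites. The site at 5842298 to 5842493, centred 3084 bases from the gene start, lies where the short form is known to end, and the sites centred 11308, 12513 and 20764 bases from the start lie beyond it. The last of these, at 5824708 to 5824724, ends at the annotated end of the gene. Whether counts at the 3 far sites are ends of the long form or priming within it was not tested. The 3 sites beyond the short form together held 33.1% ± 11.3 of Neat1 site counts in total RNA (SD, n = 36, 9.19% to 60.5%) and 66.5% ± 10.96 in nuclear RNA (36.3% to 83.8%). In polysomal RNA they held 27.2% ± 24.4, over a mean of only 40.3 Neat1 site counts a library, and single libraries ran from 0% to 100%.

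A site was tested where it held at least 5% of its gene's counts over the libraries of both groups together, so a site can pass through the group where it is high and then had to differ. The Neat1 site of the short form held 60.9% of site counts in total and 27.6% in nuclear RNA (log2 change -1.17, SE 0.09, adjusted p 2.48e-19 by edgeR), and 29 of 36 nuclear libraries lay below all total libraries. The site at the end of the gene held 1.77% in total and 11.9% in nuclear RNA (2.89, SE 0.23), but it passed that filter only through the nuclear libraries, so these values are a description. The site at 5834167 to 5834178 held 25.6% and 42.6% (0.75, SE 0.09, adjusted p 8.21e-11 by edgeR), and that at 5832938 to 5832996 held 5.72% and 12.0% (1.04, SE 0.19, adjusted p 1.38e-06 by edgeR). All 3 were higher in nuclear RNA at 6 of 6 times. In CPM the short-form site was at 85.9 in total and 244 in nuclear RNA, and the site at the end of the gene at 2.57 and 123.

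Malat1 sites shifted along the gene in nuclear RNA. In total RNA 92.8% ± 1.34 (SD, n = 36, 90.6% to 95.2%) of its site counts came from 3 sites within 1000 bp of the annotated start, and in nuclear RNA 62.3% ± 8.78 did (37.8% to 77.9%). No nuclear library reached the lowest total library. The total behind this share includes the site at 5800531, described next, and the share of genes with such a gap was not counted. The site at 5800531 to 5800583, centred 2115 bases from the start, held 0.601% in total (0.245% to 1.047%) and 18.04% in nuclear RNA (6.58% to 36.04%). All 36 nuclear libraries lay above all total libraries (log2 change 4.88, SE 0.12). This site passed the filter only through the nuclear libraries, so the values describe it and no test is drawn on. The 2 sites nearest the annotated end, centred 6566 and 6656 bases from the start, held 0.113% and 0.163% in total RNA and 2.17% and 6.71% in nuclear RNA, and were not among the sites tested. In polysomal RNA the 3 sites near the start held 70.4% ± 13.4 of Malat1 site counts (SD, n = 36), over a mean of 256 site counts.

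In Mlxipl, the earliest site of the filtered list, at 135122948 to 135123049, is centred 33108 bases from the start and 16770 bases before the annotated end. The other 4 lie 1963 bases or less before that end. It held 8.22% ± 3.404 of site counts in total RNA (2.83% to 16.8%), 14.305% ± 3.67 in nuclear RNA (5.12% to 21.8%) and 0.161% ± 0.315 in polysomal RNA (0% to 1.25%, each SD, n = 36). The nuclear and total ranges overlapped, whereas every polysomal library lay below every total library. The log2 change in nuclear RNA was 0.80 (SE 0.12, adjusted p 9.05e-09 by edgeR). That in polysomal RNA was -5.89 (SE 0.29), from a mean of 0.417 counts a polysomal library, and is a description, since the site passed the filter only through the total libraries. The site with most Mlxipl counts, at 135137667 to 135137943, held 63.7% in total, 66.1% in nuclear and 66.3% in polysomal RNA. The last site, at the annotated end of the gene, held 23.2% in total and 14.2% in nuclear RNA (-0.70, SE 0.06, adjusted p 1.11e-15 by edgeR), and 24.002% in polysomal RNA (0.06, SE 0.05, adjusted p 0.309 by edgeR).

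In Nlrp6 the site at 140923030 to 140923129, 2178 bases from the start, held 11.4% ± 5.73 in total RNA (2.88% to 24.3%), 31.7% ± 12.9 in nuclear RNA (13.95% to 76.7%) and 22.03% ± 14.03 in polysomal RNA (4.27% to 61.4%, each SD, n = 36). It rose in nuclear (1.47, SE 0.15, adjusted p 8.32e-14) and in polysomal RNA (0.88, SE 0.19, adjusted p 6.56e-05, both by edgeR), at 6 of 6 times in each, with overlap between the groups. The site at 140928307 to 140928486 fell from 19.98% to 7.77% in nuclear and 11.3% in polysomal RNA. The site that held most Nlrp6 counts, at 140928017 to 140928192, held 59.5% in total and 54.7% in nuclear RNA and was not called there (-0.12, adjusted p 0.0665 by edgeR), but it was within replicates 4 to 6 (-0.15, adjusted p 0.0117). Gcgr has 1 site in the filtered list, at 120538774 to 120539003 around the annotated end, so its usage has no comparison.

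In all, 14 of the 15 tested sites of these genes differed in share between nuclear and total RNA, where 78.6% of 11788 sites did. Between polysomal and total RNA 8 of 14 differed, where 70.5% of 12467 sites did. These counts include the Malat1 site at 5800531, the Neat1 site at 5824708 and, on polysomes, the Mlxipl site at 135122948, which passed the filter through 1 group only, and nothing is read from them. The sequence after most of these sites was not examined, since no genome sequence was used here. The Neat1 site at 5834167 fell in share in polysomal against total RNA (log2 change -1.34, SE 0.27, adjusted p 1.5e-05 by edgeR). This call and the polysomal call of the Nlrp6 site at 140923030 were also made without the polysomal libraries numbered 1. Both were made without the libraries high in Xist as well. The log2 changes of the Nlrp6 site were 1.02 and 0.89, in that order.

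**Figure D3:**
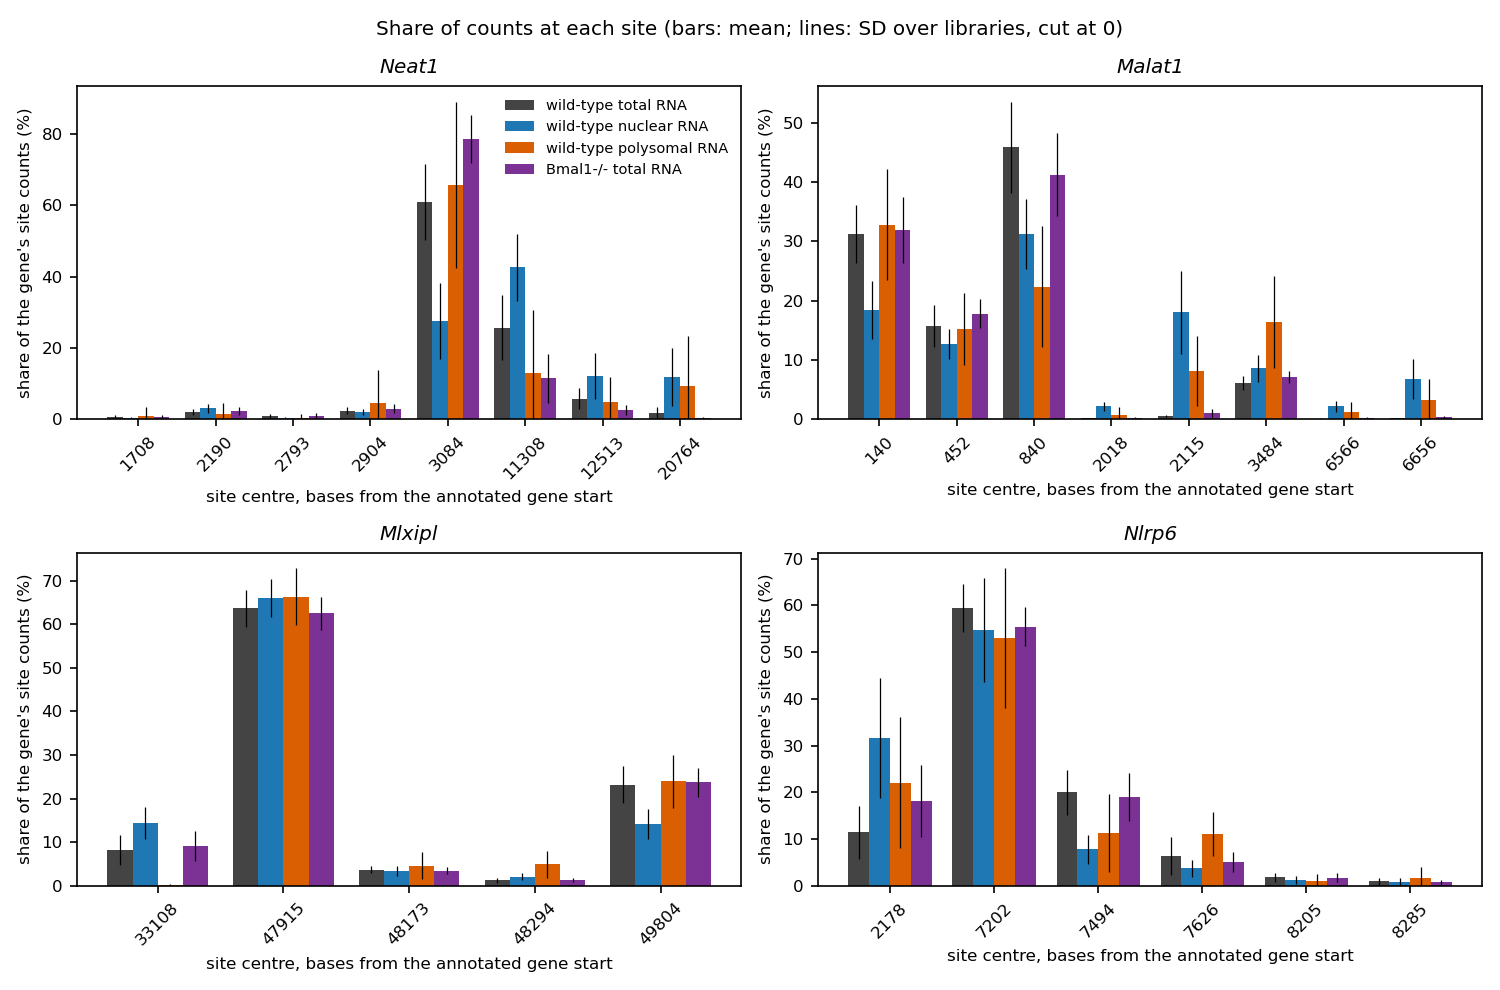
Share of a gene's site counts (y axis, percent) at each site of the filtered list for Neat1, Malat1, Mlxipl and Nlrp6, placed in order of the distance from the annotated gene start (x axis, bases), with bars for the mean of 36 libraries in each of the 4 series and lines for the SD. The Neat1 site 3084 bases from the start holds 60.9% in total and 27.6% in nuclear RNA, and the Malat1 site at 2115 bases holds 0.601% in total and 18.04% in nuclear RNA.

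Over the day, the largest change in level was that of Neat1 in nuclear RNA. Its mean was lowest at ZT10, at 695 CPM ± 281 (SD, n = 6), and highest at ZT18, at 2528 CPM ± 766 (SD, n = 6), and these 2 groups of libraries did not overlap. Since the 2 times were picked as the extremes of the same means, a gap between them is favoured. The share of all genes with such a gap was not counted. A 24 h curve fitted to all nuclear libraries peaked at ZT18.6, and its peak was 2.32 times its trough (adjusted p 0.0429 by edgeR), where 5.99% of 11172 genes were called. The call was lost without the library high in Xist (2.30, adjusted p 0.0508), with the library total alone as scale (2.36, adjusted p 0.127), within replicates 1 to 3 (2.05, adjusted p 0.821) and within replicates 4 to 6 (2.55, adjusted p 0.130), and DESeq2 called it (2.32, adjusted p 0.0119). At ZT14 single nuclear libraries ran from 335 to 5126 CPM.

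Polysomal Gcgr had a fitted peak at ZT16.7 with a ratio of 1.77 (adjusted p 0.0192 by edgeR), where 7.9% of 10691 genes were called. Its means ran from 101 CPM ± 18.9 at ZT2 to 161 CPM ± 61.9 at ZT18 (SD, n = 6), and the libraries of these times overlapped. The call was lost with scaling by the library total alone (1.52, adjusted p 0.124) and within replicates 1 to 3 (1.546, adjusted p 0.428). Polysomal Mlxipl was lowest at ZT14 (24.4 CPM ± 2.72) and highest at ZT2 (43.6 CPM ± 6.32, each SD, n = 6), with no overlap, but its 24 h curve was not called (adjusted p 0.388 by edgeR). These times too were picked as the extremes, so nothing is read from the gap.

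In wild-type total RNA edgeR called 0 of the 5 genes rhythmic, where 18.9% of 11964 genes were called. DESeq2 also called 0, and 3 genes (Neat1, Malat1 and Nlrp6) had an unadjusted p under 0.05 by edgeR. Their fitted ratios were 1.51, 1.45 and 1.22, with adjusted p of 0.0890, 0.117 and 0.157. With the replicate number as a block, edgeR did call these 3 genes, with the values given in the last paragraph. In Bmal1-/- RNA edgeR and DESeq2 called 0 of the 5, with 0 at an unadjusted p under 0.05, where 0.00825% of 12126 genes were called by edgeR. A difference in rhythm from wild-type total RNA was called for 0 of the 5 genes in Bmal1-/-, nuclear or polysomal RNA by edgeR, where 5.18%, 0.0% and 0.0% of genes were called. At an unadjusted p under 0.05 this was 1 gene (Gcgr) in Bmal1-/-, 0 in nuclear and 1 (Gcgr) in polysomal RNA. The rhythm of nuclear Neat1 was therefore not shown to differ from that in total RNA (adjusted p 0.9997 by edgeR).

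The share of Neat1 counts beyond the short form was lowest at ZT2 in both total and nuclear RNA. It was 23.0% ± 11.6 at ZT2 in total RNA and between 29.6% and 39.1% at the other times, and 52.0% ± 13.7 at ZT2 in nuclear RNA and between 66.9% and 72.4% at the other times (SD, n = 6). The libraries of ZT2 overlapped those of other times in both series. This dip was not tested for rhythm.

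**Figure D4:**
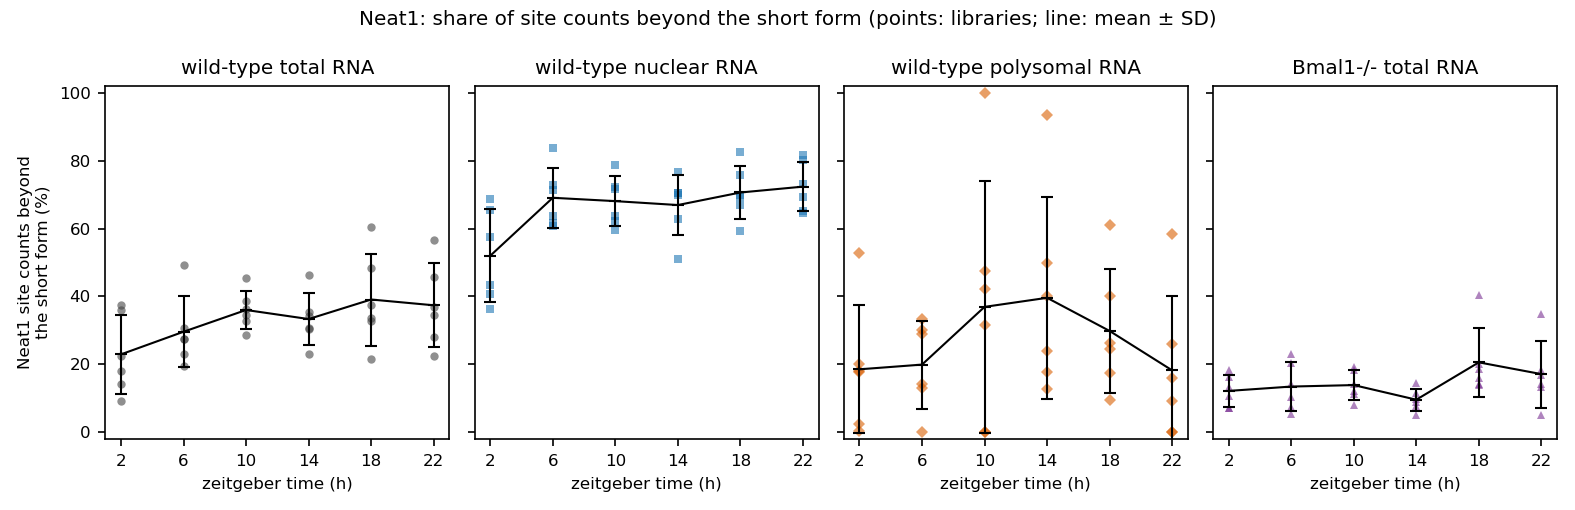
Share of Neat1 site counts beyond the short form (y axis, percent) at each zeitgeber time (x axis, hours) in the 4 series, with a point for each library and a black line for the mean ± SD of the libraries. The means over all times are 33.1% in total, 66.5% in nuclear, 27.2% in polysomal and 14.5% in Bmal1-/- RNA, and the polysomal points scatter from 0% to 100%.

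In Bmal1-/- liver, Mlxipl was lower and Nlrp6 higher than in wild-type total RNA, while the level of Neat1 was not called and its balance of sites was. Mlxipl had a median of 72.9 CPM in Bmal1-/- (43.2 to 115), against 98.0 in the wild type. The libraries overlapped, with 6 of the 36 Bmal1-/- libraries below every wild-type library, and the mean was lower at 6 of 6 times. The log2 change was -0.51 (SE 0.06, adjusted p 9.18e-11 by edgeR). Nlrp6 had a median of 77.3 CPM in Bmal1-/- (33.3 to 119), against 56.8 in the wild type, and 23 of 36 Bmal1-/- libraries lay above every wild-type library. Its log2 change was 0.33 (SE 0.07, adjusted p 0.000112 by edgeR), higher at 6 of 6 times, but it was not called within replicates 4 to 6 (0.14, adjusted p 0.320).

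Gcgr had a median of 76.9 CPM in Bmal1-/- (66.1 to 95.9) and 81.1 in the wild type, with overlapping libraries. The log2 change of -0.14 (SE 0.04, adjusted p 0.00704 by edgeR) was not called with scaling by the library total alone (-0.04, adjusted p 0.434), in a fit of all 4 series (-0.12, adjusted p 0.256) or within replicates 4 to 6 (-0.13, adjusted p 0.201). Neat1 had a median of 153 CPM in Bmal1-/- (97.3 to 455) and 157 in the wild type (log2 change -0.12, SE 0.11, 95% interval -0.33 to 0.10, adjusted p 0.387 by edgeR). Malat1 had a median of 2333 CPM in Bmal1-/- (1002 to 3500.04) and 1750 in the wild type. Its log2 change was 0.21 (SE 0.10, adjusted p 0.0971 by edgeR), and it was called with scaling by the library total alone (0.30, adjusted p 0.0194) and within replicates 1 to 3 (0.25, adjusted p 0.0181). In all, 3 of the 5 genes were called, 1 higher and 2 lower, where 44.1% of 12082 genes were called, 22.4% higher and 21.7% lower.

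The site of short Neat1 held 78.6% ± 6.71 of Neat1 site counts in Bmal1-/- (56.8% to 87.1%), against 60.9% ± 10.7 in the wild type (34.6% to 87.1%, each SD, n = 36). The site at 5834167 to 5834178 held 11.4% ± 6.80 (2.92% to 36.5%), against 25.6% ± 9.12 (8.49% to 49.2%). The groups overlapped at both sites, with 13 Bmal1-/- libraries below all wild-type libraries at the latter. The log2 changes were 0.37 at the short form (SE 0.05, adjusted p 7.07e-09) and -1.18 at the site beyond it (SE 0.14, adjusted p 4.18e-09, both by edgeR), and each kept its direction at 6 of 6 times. The short-form call was lost by edgeR's splicing test, which sets a site against the rest of its gene (0.33, adjusted p 0.334), while the other was kept (-1.30, adjusted p 2.91e-11). Within replicates 1 to 3 and 4 to 6 the change at the site beyond the short form was -1.56 and -0.89. The 3 sites beyond the short form together held 14.5% ± 7.48 of counts in Bmal1-/- (SD, n = 36, 4.98% to 40.6%).

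Sites of Nlrp6 and Malat1 were called as well in Bmal1-/-. The Nlrp6 site at 140923030 held 18.1% against 11.4% (0.66, SE 0.17, adjusted p 0.00468), and that at 140928017 held 55.4% against 59.5% (-0.10, SE 0.03, adjusted p 0.0147, both by edgeR). The second of these calls was lost in the splicing test (-0.12, adjusted p 0.927) and within replicates 1 to 3 (-0.06, adjusted p 0.404). The Malat1 site at 5799086 to 5799289 held 7.08% against 6.13% (0.21, SE 0.06, adjusted p 0.0101 by edgeR), higher at 6 of 6 times but not within replicates 1 to 3 (-0.10). The shares of the Mlxipl sites were not called, and that at 135122948 held 9.06% in Bmal1-/- and 8.22% in the wild type (adjusted p 0.721 by edgeR). In all, 5 of 13 sites of these genes were called, where 9.0% of 13305 sites were. The splicing test lost 3 of these 5 calls, those of short Neat1, the Malat1 site at 5799086 (0.17, adjusted p 0.775) and the Nlrp6 site at 140928017. Beside these results, the summed level of 8 cholangiocyte markers had a median of 78.4 CPM in Bmal1-/- (51.1 to 142) and 28.6 CPM in the wild type (18.1 to 73.3). All 3 of its genes with enough counts were called higher. The sum of 10 macrophage markers had a median of 296 CPM (132 to 612) and 372 CPM (191 to 1241), with 9 of 10 called lower. No marker of either list was at 0 in a whole series, and the part of these shifts in the results was not tested.

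Genes that work with these transcripts were taken from lists. The list of ChREBP partners and targets holds glycolytic and lipogenic genes among others. In Bmal1-/- 21 of its 22 genes were tested, where 44.1% of all genes were called, 22.4% higher and 21.7% lower. By edgeR 15 of the 21 were lower, 3 higher and 3 not called, with a median log2 change of -0.50 beside 0.01 over all genes. The largest changes were those of Pnpla3, a lipid-droplet protein (-3.75, SE 0.51), Thrsp, a regulator of lipogenesis (-2.73, SE 0.27), and Scd1, the stearoyl-CoA desaturase (-2.72, SE 0.28). Scd1 fell from 3787 CPM ± 2535 to 667 CPM ± 805 (SD, n = 36). The part of the lower Mlxipl level in the changes of this list was not tested. Of 19 tested genes of the glucagon receptor pathway, 6 were higher, 4 lower and 9 not called (median 0.04). Among the higher were Nr4a1, an immediate early transcription factor (2.09, SE 0.37), and Pde4b, a cAMP phosphodiesterase (0.72, SE 0.09), and among the lower Sds, serine dehydratase (-0.82, SE 0.31). Of 7 genes of the NLRP6 inflammasome, 2 were lower (Gsdmd and Casp1, -0.56 and -0.61), 1 was higher (Il18, 0.42) and 4 were not called (median 0.10).

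The mRNAs of proteins of the bodies that Neat1 and Malat1 mark were set beside all genes, of which 41.6% were called higher and 42.1% lower in nuclear RNA, and 38.8% higher and 37.2% lower on polysomes. In nuclear RNA, of 22 paraspeckle proteins 9 were higher, 11 lower and 2 not called (median log2 change -0.19 beside -0.01 over all genes), and of 19 speckle proteins 11 were higher, 4 lower and 4 not called (median 0.32). Srsf5, a splicing factor of speckles, was among the higher (1.94, SE 0.09), and Hnrnpk, a paraspeckle protein, among the lower (-0.95, SE 0.06). On polysomes 15 of 22 paraspeckle and 15 of 20 speckle proteins were lower and 4 of each higher, with medians of -0.80 and -0.93 beside 0.02. The changes ran from -2.10 to 0.99 in the paraspeckle list and from -2.88 to 5.99 in the speckle list. Of 22 nuclear export factors, 6 were higher and 13 lower in nuclear RNA (median -0.38), and 12 were higher and 7 lower on polysomes (median 0.19). Of 21 nuclear RNA turnover factors, 8 were higher and 11 lower in nuclear RNA, with Pabpn1, the nuclear poly(A)-binding protein, the highest (2.80, SE 0.11).

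Of 17 other long noncoding RNAs tested on polysomes, 14 were lower, 1 higher and 2 not called, with a median of -1.76, where 37.2% of all genes were lower. In nuclear RNA 13 of 20 were higher, 4 lower and 3 not called, with a median of 0.46, where 41.6% of all genes were higher. Kcnq1ot1, an imprinted RNA that silences its neighbours in cis, was lower on polysomes by -3.62 (SE 0.20), and Lncpint was higher in nuclear RNA by 4.19 (SE 0.17). In Bmal1-/- 11 of 20 of these RNAs were higher and 1 lower (median 0.31), where 22.4% of all genes were higher.

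Within a series, several of these genes varied together between libraries. Log2(CPM + 1) less its time-point mean was correlated for the 10 pairs of the 5 genes in each of 4 series, 40 pairs in all, each over 36 libraries, and 13 passed a two-sided permutation test with 100000 resamples and Benjamini-Hochberg adjustment. In nuclear RNA all 6 pairs among Neat1, Malat1, Mlxipl and Nlrp6 passed, and the 4 pairs with Gcgr did not. With TMM-scaled CPM the nuclear pair of Malat1 and Gcgr passed as well (r = -0.42, adjusted permutation p 0.0457). The closest pair was Mlxipl and Nlrp6, with r = 0.91, rho = 0.90 and r = 0.89 without the 2 libraries farthest from the median of Mlxipl. Its permutation p of 1e-05 is the smallest these resamples can give (adjusted p 0.0001). For Neat1 and Malat1 r was 0.67 and rho 0.61 (permutation p 0.00016 and 0.00062, adjusted p 0.00105 and 0.00289), with r = 0.58 without the 2 farthest. Within replicates 4 to 6 the 3 pairs of Neat1 with Malat1, Mlxipl and Nlrp6 were not called (r = 0.48, 0.70 and 0.72, adjusted permutation p 0.292, 0.157 and 0.0514). On polysomes Gcgr moved against Malat1 (r = -0.65, rho = -0.65, adjusted permutation p 0.00105 and 0.00187) and with Mlxipl (r = 0.58, rho = 0.57, adjusted permutation p 0.00178 and 0.00289). Neither pair was called within replicates 1 to 3 (r = -0.16 with Malat1 and 0.15 with Mlxipl) or 4 to 6 (r = -0.52 and 0.58). The difference in polysomal Gcgr level between these sets of libraries was not subtracted. All values come from shares of the same libraries, and the part of library composition in these relations was not tested. How often pairs of other genes pass in the same libraries was not counted. The counts of pairs are therefore not read as a trait of these genes.

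The genes whose pattern was most like each of these were found over the 24 group means by Pearson's r of log2(CPM + 1), among the 7731 genes whose mean count was 50 or more. For Neat1 they were Fam193b (r = 0.99), Gtf3c1 and Tra2a. For Malat1 they were Gm5453, Ash1l and Gm7482 (r = 0.99 each). For Mlxipl they were Zkscan3, Snhg20 and Ushbp1 (r = 0.98 each), and for Nlrp6 Mrip-ps, Sfswap and Nat6 (r = 0.98 to 0.99). Gcgr had the least close matches, Tmem259, Dgat1 and Ptov1 (r = 0.95 to 0.96).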

How the data were processed

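The authors deposited whole-number counts per gene and per polyadenylation site for each library, with a filtered list of sites, whose score column the authors deposited as 0 throughout and which was not used. Per the submitters' processing notes, STAR 2.4.2a, HOMER and edgeR were used, with the builds mm10 and GRCm38.p5. The role of each tool, the counting rule and the use of strand are not given in the sources used here. The members, gene lists and tests were chosen with earlier results of these data known.

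Genes whose mean count was 10 or more were fitted with edgeR 4.0.16 in R 4.3.3 (TMM scaling, robust quasi-likelihood F test), with Benjamini-Hochberg adjustment over all genes tested and a threshold of 0.05. Levels were compared over 36 libraries per series with time as a factor, and rhythm by a cosine and sine of 24 h. DESeq2 1.42.0 was an alternative. Site usage was fitted with the gene's site total as offset, for sites with at least 5% of a gene whose mean count was 50 or more. Sites were given to a gene on their strand, up to 1000 bp past its end (5000 bp as an alternative), where site counts summed to 0.3 to 1.5 of the gene's count. The strand came from the RefSeq start table (19142 genes) or from a share of at least 0.9 of site counts (3463 genes, Neat1 among them). Of 86780 sites, 26343 filtered sites in 8978 genes were kept, 560 fell in several genes, and 764 failed the limits on totals.

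Named genes were the members, Arntl, Alb as a cytosolic control, and the 3 genes most alike to each member. Listed genes were also named if among the 3 with the largest change past the threshold in a comparison of levels. No column was without a sample, and 0 of 360 pairs of libraries within groups were identical (smallest chi-square per degree of freedom 4.35). The main edgeR fits of level, rhythm, difference in rhythm and site usage were run on simulated data with a fixed spread. No limit was set there on missed differences in rhythm, so a rhythm or difference not called above is not shown to be absent. Alternatives were other scaling, a minimum of 1 count, all 4 series in 1 fit, replicates 1 to 3 and 4 to 6 apart, a replicate block, edgeR's splicing test, a minimum of 200 counts for usage, and leaving out libraries.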

Additional observations from a re-analysis of the deposited data

Results flagged for a closer look

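In 120 groups of 6 libraries, 7 had 1 library far from the others, where chance gives about 1 in 20 groups. Neat1 in Bmal1-/- RNA reached 422 CPM in replicate 4 at ZT2, against 107 to 164 CPM in the other libraries, and 455 CPM in replicate 6 at ZT22, against 104 to 167 CPM. The same Bmal1-/- replicate 6 at ZT22, which is also high in Xist, had 115 CPM of Mlxipl, against 55.5 to 70.9 CPM, and 92.9 CPM of Gcgr, against 70.6 to 78.9 CPM. Polysomal Neat1 was 43.5 CPM in replicate 3 at ZT2, against 4.83 to 13.5 CPM, and 17.6 CPM in replicate 1 at ZT22, against 5.68 to 9.99 CPM, the latter also a library high in Xist. Gcgr in wild-type total RNA was 40.4 CPM in replicate 4 at ZT2, against 69.6 to 84.5 CPM in the others.

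Sites outside the filtered list, which no comparison above used, held counts in nuclear RNA above their level in total RNA. Neat1 had mean levels of 54.2 CPM at 5824734 to 5824748, 67.8 CPM at 5832770 to 5832811 and 62.5 CPM at 5834112 to 5834137, against 0.922, 2.54 and 2.87 CPM in total RNA. Malat1 had 24.96 CPM at 5796056 to 5796075 and 33.1 CPM at 5796677 to 5796730, against 1.97 and 2.48 CPM. Mlxipl had 24.3 CPM at 135108999 to 135109028, 17.8 CPM at 135109755 to 135109807 and 19.1 CPM at 135123330 to 135123359, against 1.68, 1.60 and 2.41 CPM. Nlrp6 had 49.2 CPM at 140920727 to 140920842, the site before the annotated start, 19.9 CPM at 140924087 to 140924118 and 15.8 CPM at 140925118 to 140925136, against 13.3, 2.18 and 2.76 CPM. None of these sites was tested.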

How the results depend on the processing

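Of the counts over all genes, sites or pairs, 95 of 128 values under an alternative stayed within 1.5 times the value reported; the cause of the other shifts was not tested. With genes of at least 1 count, calls of polysomal against nuclear RNA were 14111 (9229 in the fit reported), rhythmic genes 2107 in polysomal (845) and 21 in Bmal1-/- RNA (1), and differences in rhythm 5 in nuclear (0) and 424 in polysomal RNA (0). With all 4 series in 1 fit, rhythmic genes were 1017 in total (2260), 2733 in polysomal and 6 in Bmal1-/- RNA, and differences in rhythm 186 in Bmal1-/- (626) and 22 in polysomal RNA. Within replicates 1 to 3 rhythmic genes were 1341 in total, 174 in nuclear (669), 115 in polysomal and 0 in Bmal1-/- RNA, and within replicates 4 to 6 they were 621 in total, 237 in nuclear and 0 in Bmal1-/- RNA. Differences in rhythm of Bmal1-/- RNA were 236 and 200 in these 2 sets, and polysomal ones 2 in replicates 4 to 6. Rhythmic genes in Bmal1-/- RNA were 0 with DESeq2, without the Bmal1-/- library high in Xist and without all 4 such libraries. Without polysomal replicate 1, 5 polysomal differences in rhythm were called, a choice made, like that on Xist, after seeing the data. With a minimum of 200 counts, site calls were 3727 in nuclear (9263) and 3811 in polysomal RNA (8787), and in Bmal1-/- RNA 455 with the splicing test and 750 within replicates 1 to 3 (1197). Associations called were 8 in replicates 1 to 3 and 4 in replicates 4 to 6 (13 reported).

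Of the values for single genes, sites and pairs, 904 kept their direction and side of the threshold, 44 lost a call, 16 gained one and 11 turned direction. In polysomal usage the log2 change of the Malat1 site at 5802040 turned to 0.16 in the splicing test, 0.21 within replicates 4 to 6 and 0.0196 without polysomal replicate 1. That of the Malat1 site at 5802437 turned to -0.0171 within replicates 4 to 6 and -0.0362 without polysomal replicate 1. Within replicates 4 to 6 the Neat1 site at 5842298 turned to -0.0222 and the Mlxipl site at 135137667 to -0.0127, and within replicates 1 to 3 the Mlxipl site at 135139613 turned to -0.00485. In Bmal1-/- usage the Malat1 site at 5799086 turned to -0.10 in replicates 1 to 3, and in replicates 4 to 6 the Malat1 site at 5802437 turned to -0.0929 and the Nlrp6 site at 140928307 to 0.0399.

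Same-numbered libraries were not taken as pairs, since nothing in the labels ties them. Their deviations from group means correlated at 0.295 on average between nuclear and total RNA (34 of 36 pairs over 0.1, 31 closest to their own number), -0.109 between polysomal and total RNA and 0.0661 between Bmal1-/- and wild-type RNA. With the replicate block rhythmic genes were 1505 in polysomal and 0 in Bmal1-/- RNA, and 1 difference in rhythm was called in nuclear RNA. The block also called the rhythm of Neat1 (adjusted p 0.0324), Malat1 and Nlrp6 (both 0.0366) in total RNA and the Malat1 level in Bmal1-/- RNA (0.21, adjusted p 0.0489), the nuclear share of the Nlrp6 site at 140928017 (-0.15, adjusted p 0.0200), and not the rhythm of nuclear Neat1 (adjusted p 0.0525), all by edgeR.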
